A study of Mus musculus with 14 samples.

Results

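EpRas cells are the H-Ras-transformed derivative of EpH4, a mouse mammary gland epithelial cell line. They received the negative control siNC or siRNAs that target Etv4 and Etv5 together, as siEtv4_1/5_1 (pair 1) or as siEtv4_2/5_2 (pair 2), and each transfection was left untreated or treated with TGF-β3 (1 ng/ml, 48 h). The 4 libraries of the siRNA pairs, of 14 in the series, were compared here, pair 2 against pair 1 within each TGF-β state, and the 2 siNC libraries served as the transfected control. Each condition has 1 library, and all libraries come from the same line and carry the same Ras transformation. The expression level is given in FPKM (fragments scaled to exon length and to the size of the library), and differences are given as log2(FPKM + 1) of pair 2 minus that of pair 1.

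Etv4 and Etv5 are transcription factors of the PEA3 group of the ETS family, which bind ETS motifs in enhancers and promoters and act downstream of receptor tyrosine kinases, Ras and ERK. An siRNA is loaded into Argonaute, and its guide strand cleaves mRNAs that it pairs with along its length. It can also repress other mRNAs, mostly through sites in the 3′ UTR that match only its seed (bases 2 to 8 of the guide). For this reason knockdown studies use more than 1 siRNA per target. Genes that differ between the pairs can reflect unequal loss of the targets, pairing with other mRNAs or variation between libraries, and the 4 libraries do not separate these.

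The sequence of siEtv5_2 is given in the sample descriptions, and those of the other siRNAs were not used here. It is shown because it makes up the Etv5 side of pair 2, with the seed in capitals, beside the site it pairs with in Etv5 and the most similar site in Etv1, the remaining PEA3 factor.
siEtv5_2: uUAAAUUCcaugccucggccagucc
Etv5 site: ggactggccgaggcatgGAATTTAa
Etv1 site: ggactggaCGAGGCATGGAATTTAA
In the Etv5 site the capitals mark the bases opposite the seed. The site lies at chr16:22392674-22392698 on the minus strand (mm10), in the coding part of exon 11 of 13 of transcript Etv5-201, and 2 of 5 annotated Etv5 transcripts contain it. The Etv1 site, also coding, is identical to it in 24 of 25 bases and differs by C8A, counted from the 5′ end of the Etv5 site. The capitals in the Etv1 site mark the longest stretch without a mismatch, 17 bases.

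Etv4 was higher with pair 2 than with pair 1 in both states, although the difference did not pass the test, whereas Etv5 was low with both pairs. In untreated cells siNC left Etv4 at 57.4 FPKM, pair 1 at 11.6 FPKM and pair 2 at 27.9 FPKM. The levels under TGF-β were 64.3, 12.6 and 18.9 FPKM in the same order. The Etv4 level with pair 2 exceeded that with pair 1 in both states, 2.40 times as much in untreated cells and 1.495 times as much with TGF-β. The mean difference over both states was 0.87 ± 0.23 (SE) on the log2 scale, with an adjusted p of 0.26 in limma, and the Cuffdiff intervals of the pairs overlapped in both states. Etv5 was at 8.85, 1.61 and 1.26 FPKM in untreated cells and at 5.34, 1.24 and 1.203 FPKM with TGF-β, again in the order siNC, pair 1 and pair 2. These levels correspond to 238, 59 and 43 reads and to 250, 46 and 40 reads. The difference between the pairs was -0.12 ± 0.20 (SE) for Etv5 (limma adjusted p = 0.85). Etv1 was low throughout. It was at 1.54, 1.27 and 1.48 FPKM in untreated cells and at 1.04, 0.50 and 1.30 FPKM with TGF-β. Etv1 thus stayed below the 5 FPKM needed for testing, and whether siEtv5_2 acts on it was not tested.

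**Figure D1:**
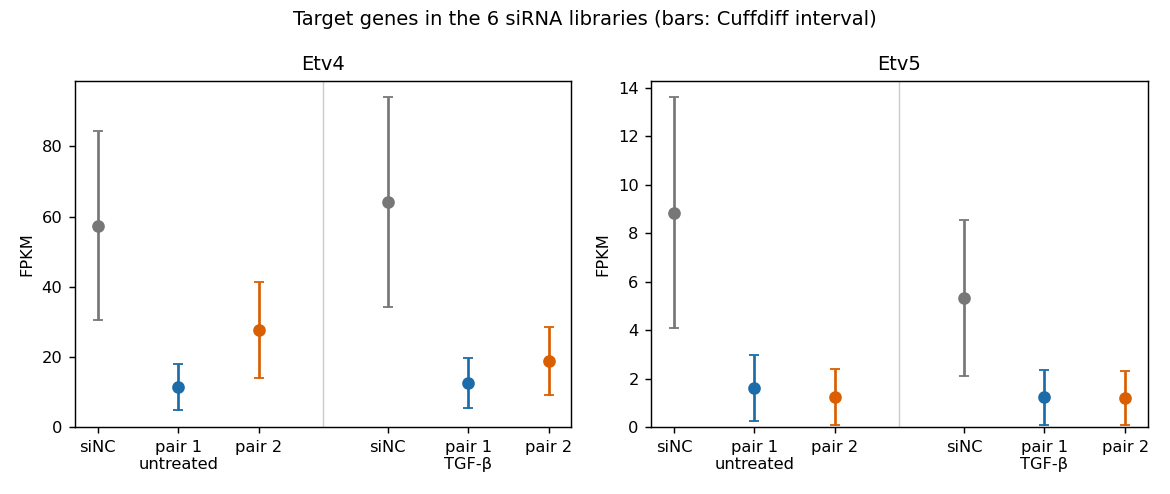
Expression levels of Etv4 and Etv5 in FPKM (linear axes from 0) in the 6 siRNA libraries, 1 point per library, with the interval Cuffdiff gives for each value. For Etv4 pair 2 (27.9 and 18.9 FPKM) lies between siNC and pair 1 in both states, and for Etv5 both pairs lie between 1.203 and 1.61 FPKM.

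Across the transcriptome, the pairs were further apart than replicates of untransfected EpRas cells without TGF-β, and closer together than those replicates with TGF-β. Of 9094 genes that reached 5 FPKM in at least 1 of the 6 libraries, 347 were at least 2-fold apart between the pairs in untreated cells and 357 with TGF-β. Leaving out genes for small structural RNAs and replication histones, 284 of 8977 genes (3.16%) and 304 genes (3.39%) were 2-fold apart. In the untransfected cells, which were quantified separately, 128 of 8480 genes (1.51%) were 2-fold apart between the replicates without TGF-β and 415 genes (4.89%) with TGF-β. The correlation of levels across these genes was 0.967 between the pairs in each state, and 0.977 and 0.957 between the untransfected replicates. The share of genes 2-fold apart between the pairs in a single state thus lay between those of the untransfected replicates without and with TGF-β.

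The comparison therefore rests on the genes that were at least 2-fold apart in the same direction in both states, which share no library. There were 59 genes higher with pair 2 (0.649% of the genes tested) and 57 genes lower with pair 2 (0.627%), against 17 genes (0.187%) that were 2-fold apart in opposite directions. Of these 17, 12 were genes for small structural RNAs and 2 were histone genes. Among the 116 genes apart in the same direction 4 were small RNA genes and 8 were histone genes. Across the 8977 other genes the difference in untreated cells and that with TGF-β had a Pearson correlation of 0.52, which describes the genes and not independent samples. Over all 9094 genes it was 0.23. The values closest to the threshold were those of Sat1 (a smaller difference of 1.0001) just inside and Itga6 (0.997) just outside.

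No gene passed the test. In limma, with the 6 libraries, a term for the siRNA and a term for TGF-β, 0 genes were called higher with pair 2 (0%) and 0 lower (0%) at an adjusted p under 0.05, whereas 664 and 571 genes had an unadjusted p under 0.05. The lowest adjusted p was 0.122. A fit of the 4 libraries of the pairs alone called 0 genes higher and 4 lower, namely Acta2, Fhl1, Akr1b3 and Snord55. The libraries of the 2 states stand in for replicates in these fits. An exact permutation test of 2 libraries against 2 that ignores the pairing by state cannot give a two-sided p below 0.333. The members below are thus described by their values in each library. The intervals that Cuffdiff gives for single libraries were apart in both states for 11 genes. These were Ecm1, Gpr123, Nt5e and Ocel1, all higher with pair 2, and Acta2, Actg2, Col12a1, Col1a1, Fhl1, Hpcal1 and U90926, all lower with pair 2.

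**Figure D2:**
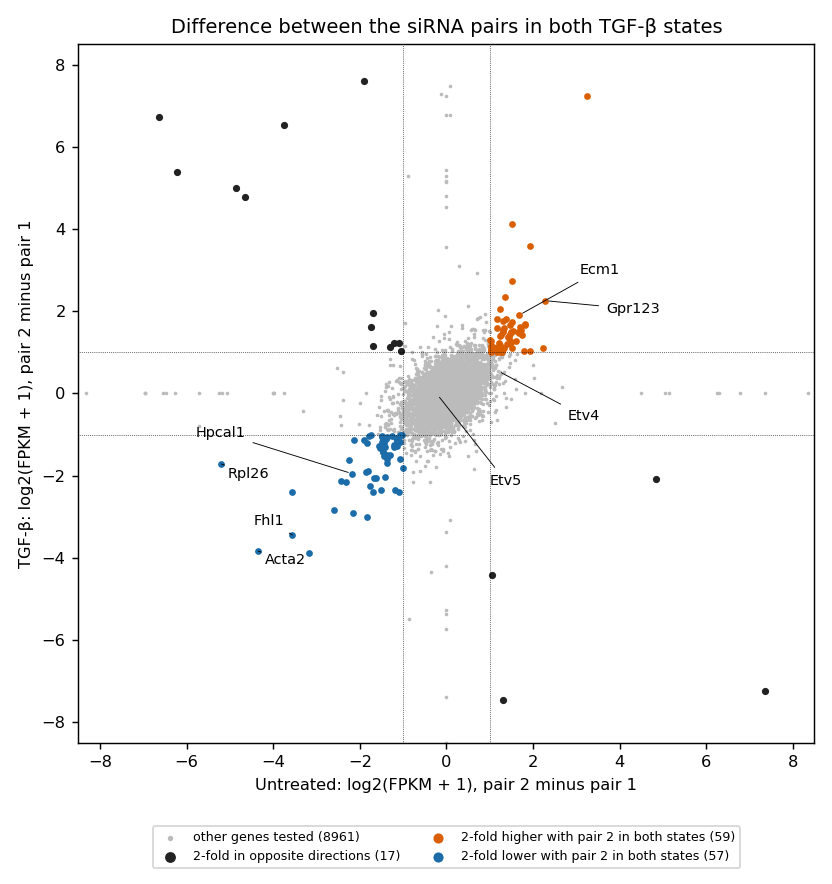
Difference between the siRNA pairs, in log2(FPKM + 1) of pair 2 minus pair 1, in untreated cells (x axis) and with TGF-β (y axis), 1 point per gene tested, with dotted lines at a 2-fold difference. The 59 and 57 genes 2-fold apart in the same direction lie at the upper right and lower left. Etv4 was higher with pair 2 in both states but within the 2-fold line with TGF-β.

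Of the 59 genes higher with pair 2, 46 were below siNC with pair 1 in both states, and 31 were above siNC with pair 2 in both states. Over all 9094 genes tested, 2924 (32.2%) were below siNC with pair 1 and 3211 (35.3%) above it with pair 2, and the members were chosen by the distance between the pairs. Ecm1 (chr3:95734148-95739569), which encodes extracellular matrix protein 1, had 296.4 FPKM with siNC, 32.4 with pair 1 and 106.7 with pair 2 in untreated cells. The corresponding levels under TGF-β were 351.2, 50.1 and 190.8 FPKM. The order siNC, pair 2, pair 1 was that of Etv4, and the mean difference between the pairs was 1.80 on the log2 scale (limma adjusted p = 0.13). Loxl3, a lysyl oxidase that crosslinks collagen and elastin, was at 12.4, 1.597 and 8.20 FPKM without and at 12.9, 3.22 and 12.6 FPKM with TGF-β. Blvrb, a biliverdin reductase, was at 378.5, 58.8 and 147.2 FPKM and at 297.6, 40.6 and 116.5 FPKM. Fam83a, which takes part in signalling downstream of the EGF receptor, was at 41.7, 8.21 and 28.5 FPKM and at 52.3, 8.65 and 25.8 FPKM. In all of these both pairs were below siNC, and pair 1 was the lower one.

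The siNC libraries were not at the level of untransfected EpRas cells for part of these genes. The untransfected cells also have no knockdown, and 2 replicates without and 2 with TGF-β were quantified in a separate run. There Fam83a was at 4.15 and 4.87 FPKM without and at 4.64 and 5.96 FPKM with TGF-β, below pair 1, pair 2 and siNC. Ecm1 was at 71.4 and 44.3 FPKM and at 44.8 and 79.4 FPKM, and Blvrb at 86.3 and 69.7 FPKM and at 40.1 and 56.9 FPKM, so that siNC was above all 4 untransfected libraries for both genes. For Loxl3 the untransfected cells, at 9.81 and 11.2 FPKM and at 8.35 and 12.7 FPKM, were instead near siNC and above pair 1.

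Of the 59 genes higher with pair 2, siNC was at least 2-fold above both untransfected replicates in both states for 16 (27.1%), compared with 1.98% of all genes. It was 2-fold below them for 2 (Gm20571 and Macrod1; 0.473% of all genes). Pair 1 was at least 2-fold below them for 6 (Ank, Grem1, Loxl3, Nt5e, Ramp1 and Sema7a; 0.275% of all genes), and pair 2 at least 2-fold above them for 9 (0.396% of all genes). Of the 57 genes lower with pair 2, siNC was 2-fold above both replicates for 5 and 2-fold below them for 3. Pair 1 was 2-fold above them for 13 of the 57 (0.396% of all genes), among them the 6 contractile genes described below, and pair 2 was 2-fold below them for 5 (0.308% of all genes). These counts were added after the values were seen. Transfection and the separate quantification cannot be told apart in them. A level below siNC is therefore given as such and not as a loss from the level of untransfected cells. Etv4 was at 64.8 and 62.2 FPKM and at 71.7 and 65.3 FPKM in these cells, near siNC.

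The same order was seen for subunits of laminin-332, the laminin of epithelial basement membranes. Lamb3 was at 162.7, 48.7 and 138.5 FPKM with siNC, pair 1 and pair 2 in untreated cells and at 581.1, 124.3 and 299.7 FPKM with TGF-β. Lama3 was at 37.3, 6.63 and 16.01 FPKM and at 114.4, 18.3 and 38.1 FPKM. For both genes siNC was at least 2-fold above the untransfected cells, where Lama3 was at 12.3 and 10.5 FPKM without and at 28.7 and 26.1 FPKM with TGF-β. Grem1, a secreted BMP antagonist, was at 27.0, 2.27 and 5.59 FPKM and at 41.3, 11.6 and 30.3 FPKM. Lgr6, a receptor for R-spondins, was at 13.7, 2.40 and 7.52 FPKM and at 23.3, 6.16 and 14.4 FPKM.

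In all, pair 2 lay between siNC and pair 1 in both states for 17 of the 59 genes (28.8%), as it did for Etv4. The corresponding share was 6 of 57 (10.5%) for the genes lower with pair 2 and 17.4% over all genes tested. The siNC libraries lay between the pairs for 18 of the 59 genes (30.5%) and 15 of the 57 (26.3%), compared with 7.14% over all genes. Pair 1 lay between siNC and pair 2 for 2 of the 59 (3.39%) and 7 of the 57 (12.3%), compared with 15.8% over all genes. Members were chosen for a large distance between the pairs, which leaves more room for siNC between them, so these shares are a description. Whether the remaining Etv4 accounts for the genes with the order of Etv4 was not tested.

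For some genes pair 1 was low while pair 2 stayed near the level of siNC. Taking genes at least 2-fold below siNC and below pair 2 in both states, with pair 2 within 1.5-fold of siNC, 10 genes were low with pair 1 only (0.11% of the genes tested). These were Adam8, Atp2c2, Hmga2, Hsd11b1, Loxl3, Ramp1, S100a14, Sema4b, Shf and Slc39a9. Of these, Hsd11b1, Loxl3 and Sema4b were also among the genes with the order of Etv4. This rule was chosen with the values known. Ramp1, which pairs with the receptor for the neuropeptide CGRP, was at 20.5, 6.88 and 20.6 FPKM with siNC, pair 1 and pair 2 in untreated cells and at 22.8, 8.57 and 23.3 FPKM with TGF-β. Shf, an adaptor protein with an SH2 domain, was at 26.9, 12.3 and 26.8 FPKM and at 35.1, 16.05 and 36.3 FPKM. Slc39a9, a zinc transporter, was at 7.79, 2.94 and 8.33 FPKM and at 7.38, 2.85 and 7.71 FPKM. In these 3 genes pair 2 and siNC were nearly the same in both states. In untransfected cells Ramp1 was at 31.8 and 31.2 FPKM without and at 23.1 and 29.03 FPKM with TGF-β, all above pair 1.

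Hmga2, a chromatin protein associated with EMT and the only one of 24 tested EMT regulators and junction genes among the members higher or lower with pair 2 (0.649% and 0.627% of all genes), was at 60.4, 27.5 and 89.0 FPKM and at 91.5, 31.5 and 90.4 FPKM. Adam8, a membrane protease, was at 46.5, 12.7 and 31.3 FPKM and at 40.3, 11.8 and 51.7 FPKM. Sema4b, a membrane semaphorin, was at 17.1, 5.29 and 16.8 FPKM and at 12.5, 3.08 and 10.5 FPKM. The steroid-activating enzyme Hsd11b1 was at 5.17, 0.85 and 4.07 FPKM and at 8.52, 1.4997 and 6.88 FPKM, but it also differed 2-fold between untransfected replicates. S100a14, a calcium-binding protein of epithelia, was at 31.3, 11.5 and 39.7 FPKM and at 13.9, 3.01 and 11.3 FPKM. For S100a14, Atp2c2 and Hsd11b1, siNC was at least 2-fold above the untransfected replicates of each state. S100a14 was at 8.81 and 5.48 FPKM without and at 2.04 and 1.46 FPKM with TGF-β in those cells, below pair 1.

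Other genes higher with pair 2 lay above siNC with it and below siNC with pair 1. Gpr123 (chr7:139834174-139878088), an adhesion G protein-coupled receptor, was at 3.01, 0.54 and 6.50 FPKM with siNC, pair 1 and pair 2 in untreated cells and at 11.97, 2.72 and 16.8 FPKM with TGF-β. Its difference of 2.27 ± 0.19 (SE) shared the lowest adjusted p of the fit (limma adjusted p = 0.122) with Col1a1 and Hpcal1. Gpr123 in untransfected cells was at 0.67 and 0.79 FPKM without and at 4.75 and 4.37 FPKM with TGF-β. Both siNC and pair 2 were at least 2-fold above these levels in both states. Pair 1 was near them in untreated cells and below them with TGF-β. Nt5e (CD73), which converts AMP to adenosine, was at 23.9, 10.3 and 31.2 FPKM and at 53.5, 33.5 and 113.6 FPKM. Ocel1 was at 22.5, 9.97 and 37.4 FPKM and at 19.998, 9.15 and 31.1 FPKM, but it also differed 2-fold between untransfected replicates. Adam12, a membrane protease, was at 12.01, 6.03 and 18.6 FPKM and at 27.0, 17.8 and 49.8 FPKM. Ppap2b, a lipid phosphate phosphatase, was at 11.96, 5.89 and 18.6 FPKM and at 13.7, 2.24 and 55.8 FPKM. Its untransfected levels were 3.02 and 3.15 FPKM without and 1.41 and 1.47 FPKM with TGF-β. These were below pair 1 and at least 2-fold below siNC and pair 2.

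The S100 proteins S100a8 and S100a4 were members as well. S100a8, a subunit of calprotectin, was at 44.5, 0.52 and 6.10 FPKM and at 12.98, 0 and 1.14 FPKM (also 2-fold apart between untransfected replicates). S100a8 in untransfected cells was at 1.47 and 0 FPKM without and at 1.04 and 0 FPKM with TGF-β, at least 2-fold below siNC. S100a4, a marker of mesenchymal cells, was at 1945.0, 1661.4 and 3376.1 FPKM and at 733.8, 888.6 and 1802.2 FPKM. Within the siRNA libraries, S100a4 reached the highest level of the 116 genes in FPKM.

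Sema7a, a semaphorin anchored in the membrane, was at 28.9, 2.51 and 6.89 FPKM and at 48.9, 14.8 and 46.5 FPKM. Arhgdib was at 12.4, 3.31 and 9.54 FPKM and at 15.2, 3.802 and 8.72 FPKM. Ank, a transporter of pyrophosphate, was at 42.2, 22.4 and 58.8 FPKM and at 99.2, 30.7 and 159.2 FPKM. The further genes higher with pair 2 were Rap1gap, Ctla2b, Eya2, Gstt1, Zfp362, Fut8, Tmem107, Traf5, Ephb6, Ptgfrn, Scara3, Ypel5, Mrpl54, Ccbe1, Lhx6, Gm2115, 5 genes known by clone names (1600029D21Rik, 1700016C15Rik, 1700020L24Rik, 3110043O21Rik and A330049M08Rik) and the small RNA genes Snord100 and Mir1905.

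Of the last of the 15 genes with the largest differences, Gsta4, a glutathione transferase, was at 149.6, 57.8 and 169.8 FPKM in untreated cells and at 108.4, 9.29 and 28.5 FPKM with TGF-β, so that pair 2 was near siNC in 1 state only. Gsta4 in untransfected cells was at 43.2 and 44.3 FPKM without and at 8.65 and 4.39 FPKM with TGF-β. Both siNC and pair 2 were at least 2-fold above these levels. Insl3, an insulin-like peptide hormone, was at 0.51, 4.67 and 17.6 FPKM and at 4.56, 1.82 and 7.26 FPKM, and it was 2-fold apart between untransfected replicates. Gm20571 was at 0, 8.40 and 34.9 FPKM and at 0.11, 0 and 10.96 FPKM. For Gm20571 the untransfected replicates with TGF-β were at 71.0 and 9.20 FPKM.

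**Figure D3:**
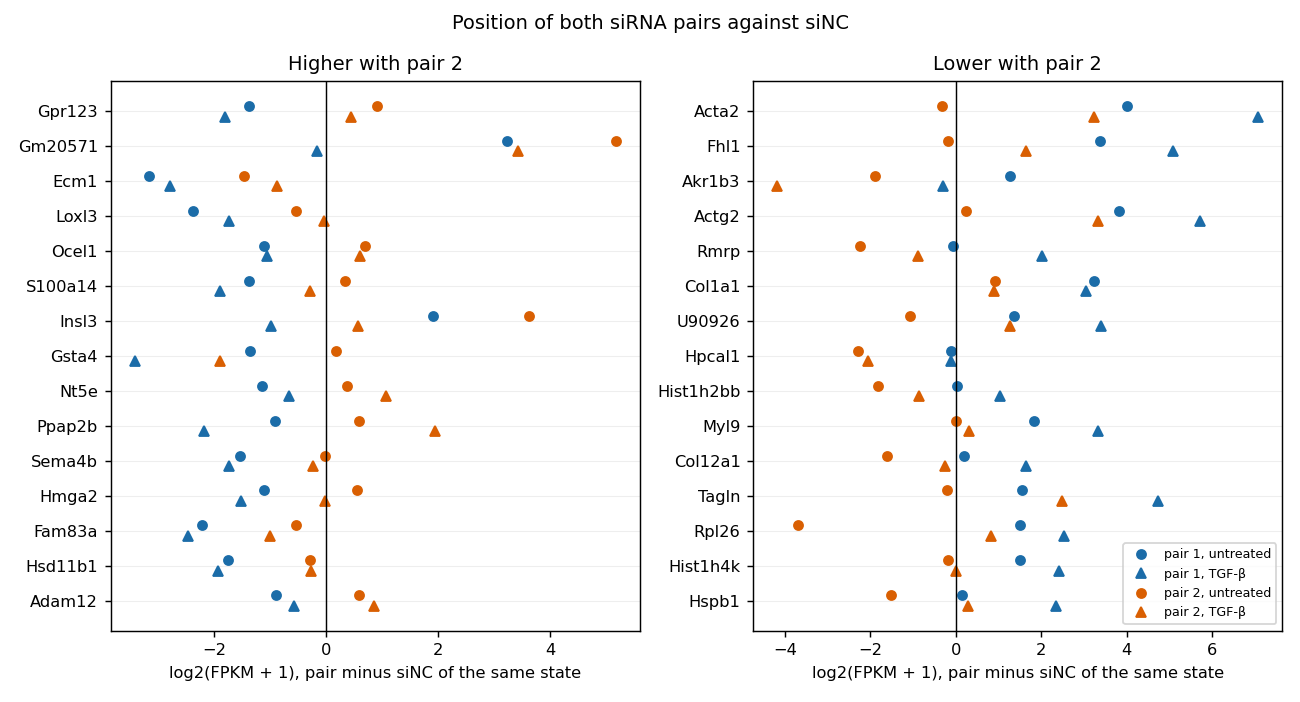
Difference from siNC of the same state, in log2(FPKM + 1), for the 15 genes most different in each direction, with pair 1 in blue, pair 2 in orange, untreated cells as circles and TGF-β as triangles, 1 library per point. Among the genes higher with pair 2, Ecm1, Loxl3, Sema4b, Fam83a and Hsd11b1 were below siNC with both pairs in both states. Among the genes lower with pair 2, Acta2, Fhl1, Actg2, Myl9 and Tagln were above siNC with pair 1 in both states.

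Of the 57 genes lower with pair 2, 42 were above siNC with pair 1 in both states, and 29 were below siNC with pair 2 in both states, compared with 3271 (36.0%) and 2824 (31.1%) of all genes tested. The contractile genes Acta2, Actg2, Tagln, Myl9, Fhl1 and Csrp1 were above siNC with pair 1 in both states. Acta2 (chr19:34241091-34255336), which encodes smooth muscle α-actin, had 0.51 FPKM with siNC, 23.4 with pair 1 and 0.20 with pair 2 in untreated cells. Its levels under TGF-β were 0.49, 201.9 and 13.2 FPKM. These values rest on 6, 373 and 3 reads and on 10, 3265 and 191 reads. Pair 1 stood apart from the other 2 transfections in both states, and pair 2 was above siNC only with TGF-β. The mean difference between the pairs was -4.09 ± 0.85 (SE; limma adjusted p = 0.19), and in untransfected EpRas cells Acta2 was at 1.24 and 1.33 FPKM without and at 1.89 and 2.26 FPKM with TGF-β.

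Actg2, smooth muscle γ-actin, was at 0, 13.2 and 0.19 FPKM in untreated cells and at 0.07, 55.7 and 9.78 FPKM with TGF-β. Tagln (SM22, an actin-binding protein of smooth muscle) was at 0.68, 3.94 and 0.46 FPKM and at 0.84, 47.9 and 9.28 FPKM. Myl9, a myosin regulatory light chain, was listed at 0 with siNC and pair 2 and at 2.59 FPKM with pair 1 in untreated cells, and it was at 0, 9.08 and 0.25 FPKM with TGF-β. Fhl1, a LIM protein of muscle, was at 0.25, 11.96 and 0.10 FPKM and at 0.18, 39.1 and 2.69 FPKM. Csrp1, another LIM protein, started from a higher level and was at 74.7, 183.7 and 64.4 FPKM and at 95.7, 439.5 and 194.0 FPKM. In each of these 6 genes pair 1 had the highest of the 3 levels in both states.

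**Figure D4:**
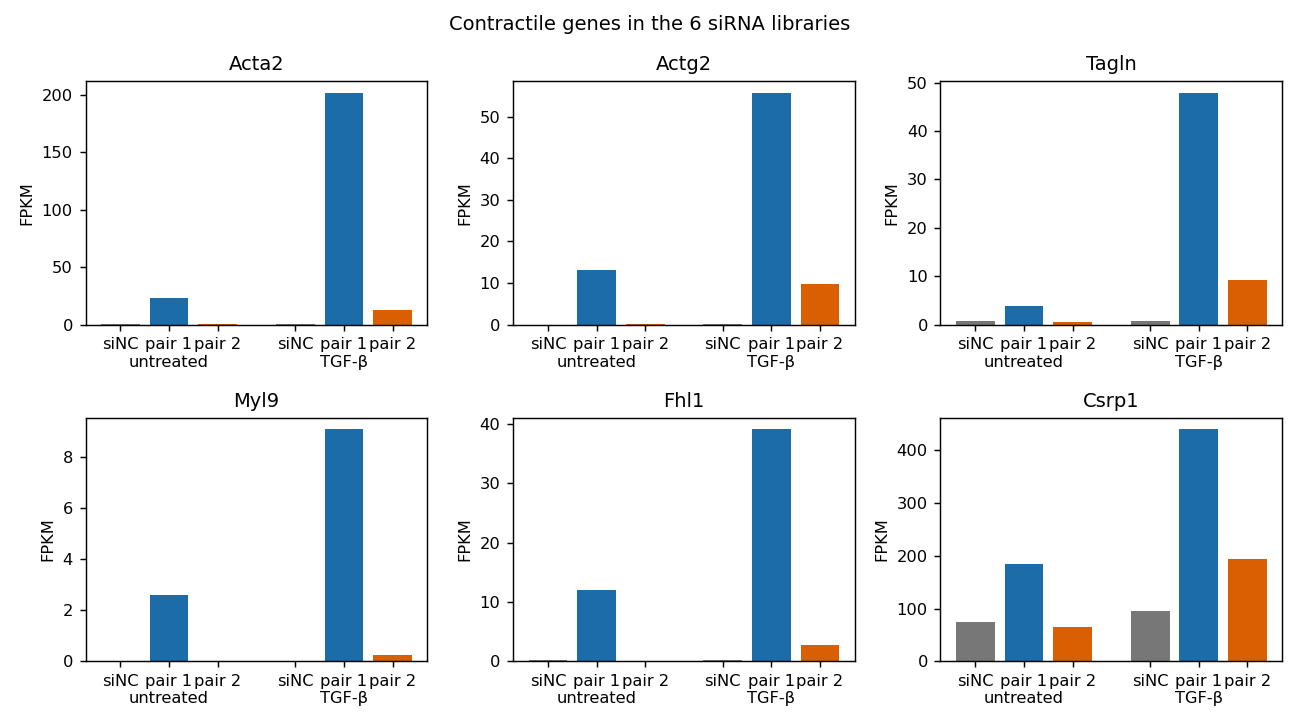
Expression levels in FPKM (linear axes from 0) of Acta2, Actg2, Tagln, Myl9, Fhl1 and Csrp1 in the 6 siRNA libraries, 1 bar per library. Pair 1 is the highest in every panel and state, and pair 2 is above siNC with TGF-β in all 6 genes.

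A list of 26 contractile genes was chosen with these values known and can only describe them. Of 18 members tested, 6 were at least 2-fold lower with pair 2 in both states and 0 higher, and 13 were lower in both states at any size. Over all genes tested, 0.627% were 2-fold lower and 2748 of 9094 lower at any size. The median difference was -0.67 in untreated cells and -0.87 with TGF-β, compared with 0.00 and 0.02 over all genes tested. Tpm1, tropomyosin 1, was at 310.4, 1000.3 and 568.2 FPKM with siNC, pair 1 and pair 2 in untreated cells and at 391.7, 1722.2 and 1071.2 FPKM with TGF-β. Srf, the transcription factor that drives many of these genes, was at 34.2, 40.3 and 38.6 FPKM and at 29.5, 56.7 and 66.4 FPKM, and its coactivator Mkl1 was at 32.5, 30.3 and 32.6 FPKM and at 52.8, 49.2 and 65.9 FPKM. Both were higher with pair 2 than with pair 1 with TGF-β. These are mRNA levels, and what part Srf and Mkl1 have in the differences of the contractile genes was not tested.

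Genes induced through YAP and TEAD, which respond to the actin cytoskeleton, were also among those lower with pair 2. Ctgf, a matricellular growth factor, was at 80.3, 152.7 and 42.1 FPKM with siNC, pair 1 and pair 2 in untreated cells and at 525.2, 982.7 and 423.3 FPKM with TGF-β. Cyr61, its paralogue, was at 189.5, 236.5 and 53.4 FPKM and at 358.6, 535.3 and 241.6 FPKM. Here siNC lay between the pairs in both states. Of 17 tested genes of a list that was also chosen with the values known, 4 (Ctgf, Cyr61, F3 and Edn1) were 2-fold lower with pair 2 in both states and 1 (Nt5e) was 2-fold higher, compared with 0.627% and 0.649% of all genes.

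F3, tissue factor, was at 8.20, 13.7 and 6.003 FPKM with siNC, pair 1 and pair 2 in untreated cells and at 8.13, 42.7 and 13.5 FPKM with TGF-β. Edn1, the vasoconstrictor endothelin 1, was at 2.01, 2.50 and 0.35 FPKM and at 0.97, 15.1 and 4.32 FPKM, from 32, 54 and 7 reads and 27, 331 and 85 reads. For F3 and Edn1 the level with pair 1 and TGF-β was the highest of the 6.

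Further genes were lower with pair 2. Fst, follistatin, which binds activins, was at 11.3, 17.4 and 4.96 FPKM and at 1.52, 5.76 and 0.61 FPKM. Mcam, an adhesion molecule, was at 1.75, 8.62 and 1.57 FPKM and at 6.96, 61.7 and 27.6 FPKM. The small heat shock protein Hspb1 was at 2.30, 2.68 and 0.15 FPKM and at 2.65, 17.5 and 3.41 FPKM. Col4a5, a chain of basement membrane collagen, was at 15.5, 36.98 and 13.7 FPKM and at 8.63, 14.3 and 4.47 FPKM. Cdc42ep3, an effector of CDC42 that acts on actin, was at 19.8, 37.7 and 13.5 FPKM and at 16.2, 67.2 and 26.8 FPKM. Rbm38, an RNA-binding protein, was at 25.6, 50.2 and 22.1 FPKM and at 24.3, 37.3 and 15.9 FPKM.

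In contrast, the chemokine Ppbp was far below siNC with both pairs, at 104.9, 4.40 and 1.32 FPKM and at 24.8, 5.11 and 1.49 FPKM. Untransfected cells had Ppbp at 4.45 and 5.30 FPKM without and at 2.03 and 2.03 FPKM with TGF-β, so that siNC was above all of them, pair 1 was near them in untreated cells and above them with TGF-β, and pair 2 was below them. The noncoding RNAs Rmrp (28.3, 27.0 and 5.24 FPKM, and 25.9, 107.6 and 13.5 FPKM) and U90926 (35.7, 94.0 and 16.5 FPKM, and 12.5, 142.8 and 31.9 FPKM) were also lower with pair 2. Rmrp was 2-fold apart between untransfected replicates, at 166.1 and 61.4 FPKM without and at 22.1 and 72.7 FPKM with TGF-β. In untransfected cells U90926 was at 109.8 and 93.7 FPKM and at 138.0 and 121.8 FPKM, near pair 1 and above siNC and pair 2. The further genes lower with pair 2 were Grb14, Bcam, Prl2c3, Guca1a, Nrtn, Coro6, Gm5088, Flywch2, 4930429B21Rik, the small RNA gene Snord35a and the histone genes Hist1h2ab, Hist1h2bb, Hist1h2bj, Hist1h3c and Hist1h4j.

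Matrix genes were split between the directions. Of 22 tested matrix and matricellular genes, Lamb3, Lama3 and Col6a1 were 2-fold higher with pair 2 in both states and Col1a1, Col12a1, Ctgf and Cyr61 were 2-fold lower, compared with 0.649% and 0.627% of all genes. Col1a1, the α1 chain of type I collagen, was at 0.63, 14.3 and 2.07 FPKM with siNC, pair 1 and pair 2 in untreated cells and at 2.44, 27.7 and 5.399 FPKM with TGF-β. Col12a1, a collagen associated with fibrils, was at 8.05, 9.42 and 1.97 FPKM and at 7.39, 25.3 and 6.09 FPKM. Col12a1 in untransfected cells was at 2.17 and 2.07 FPKM without and at 1.97 and 2.05 FPKM with TGF-β. Both siNC and pair 1 were at least 2-fold above these levels, and pair 2 was near them in untreated cells and above them with TGF-β. Col6a1, a chain of type VI collagen, was at 3.21, 9.01 and 29.4 FPKM and at 1.27, 0.59 and 2.88 FPKM. The list had 15 of 22 members with an unadjusted p under 0.05, compared with 1235 of 9094 genes (13.6%) in all, but 0 members passed after adjustment. Its median difference was 0.34 in untreated cells and 0.50 with TGF-β, compared with 0.00 and 0.02 over all genes tested.

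For a small group of genes pair 2 was low while pair 1 stayed at the level of siNC, the opposite of Ramp1. By the same rule with the pairs exchanged, 4 genes (0.044%) were low with pair 2 only, namely Hpcal1, Tax1bp3, Angptl4 and Snord55. Hpcal1 (chr12:17690814-17791926), a neuronal calcium sensor protein, had 49.9 FPKM with siNC, 46.1 with pair 1 and 9.34 with pair 2 in untreated cells. Under TGF-β the levels were 40.2, 37.2 and 8.89 FPKM. In the untransfected cells it was at 49.9 and 47.1 FPKM without and at 35.2 and 47.7 FPKM with TGF-β, so that the pair 2 libraries were the only 2 of 10 EpRas libraries with a low level. Its difference between the pairs was -2.07 on the log2 scale (limma adjusted p = 0.12).

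Tax1bp3, a PDZ domain protein, was at 29.8, 29.7 and 10.9 FPKM with siNC, pair 1 and pair 2 in untreated cells and at 44.3, 51.0 and 15.1 FPKM with TGF-β. Angptl4, a secreted inhibitor of lipoprotein lipase, was at 4.59, 4.37 and 0.56 FPKM and at 7.05, 4.47 and 1.66 FPKM. Untransfected cells had Angptl4 at 1.48 and 0.79 FPKM without and at 1.05 and 2.25 FPKM with TGF-β, at least 2-fold below siNC. Snord55 was 2-fold apart between untransfected replicates. Ei24, a protein of the endoplasmic reticulum, was at 53.4, 74.6 and 29.7 FPKM and at 44.3, 58.6 and 20.1 FPKM. Rraga, a GTPase that activates mTORC1 in response to amino acids, was at 111.2, 126.2 and 55.4 FPKM and at 80.6, 121.8 and 50.4 FPKM. For Ei24 and Rraga, pair 2 was less than 2-fold below siNC in at least 1 state, and the rule did not count them.

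With the directions exchanged, 3 genes were high with pair 2 only (0.033%) and 7 genes with pair 1 only (0.077%), the other pair lying within 1.5-fold of siNC. Matn2, a matrilin of the extracellular matrix, was at 3.98, 2.57 and 9.06 FPKM with siNC, pair 1 and pair 2 in untreated cells and at 7.30, 6.71 and 17.2 FPKM with TGF-β. Macrod1, a mitochondrial hydrolase of ADP-ribose, was at 6.14, 7.57 and 28.7 FPKM and at 4.04, 5.36 and 11.97 FPKM. Untransfected cells had Macrod1 at 16.1 and 15.8 FPKM without and at 12.9 and 15.2 FPKM with TGF-β, above siNC and pair 1 in both states and above pair 2 with TGF-β. The third gene was the milk protein gene Csn3, which was 2-fold apart between untransfected replicates. High with pair 1 only were Slit2, a secreted guidance cue, at 4.36, 15.3 and 6.18 FPKM and at 1.89, 16.1 and 2.36 FPKM, and Rbpms2, an RNA-binding protein of smooth muscle, at 1.46, 4.35 and 0.97 FPKM and at 5.20, 18.0 and 5.58 FPKM. The remaining genes were Myl9, Rpl34, Hist1h1c, Hist1h4k and Hist2h2ac.

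**Figure D5:**
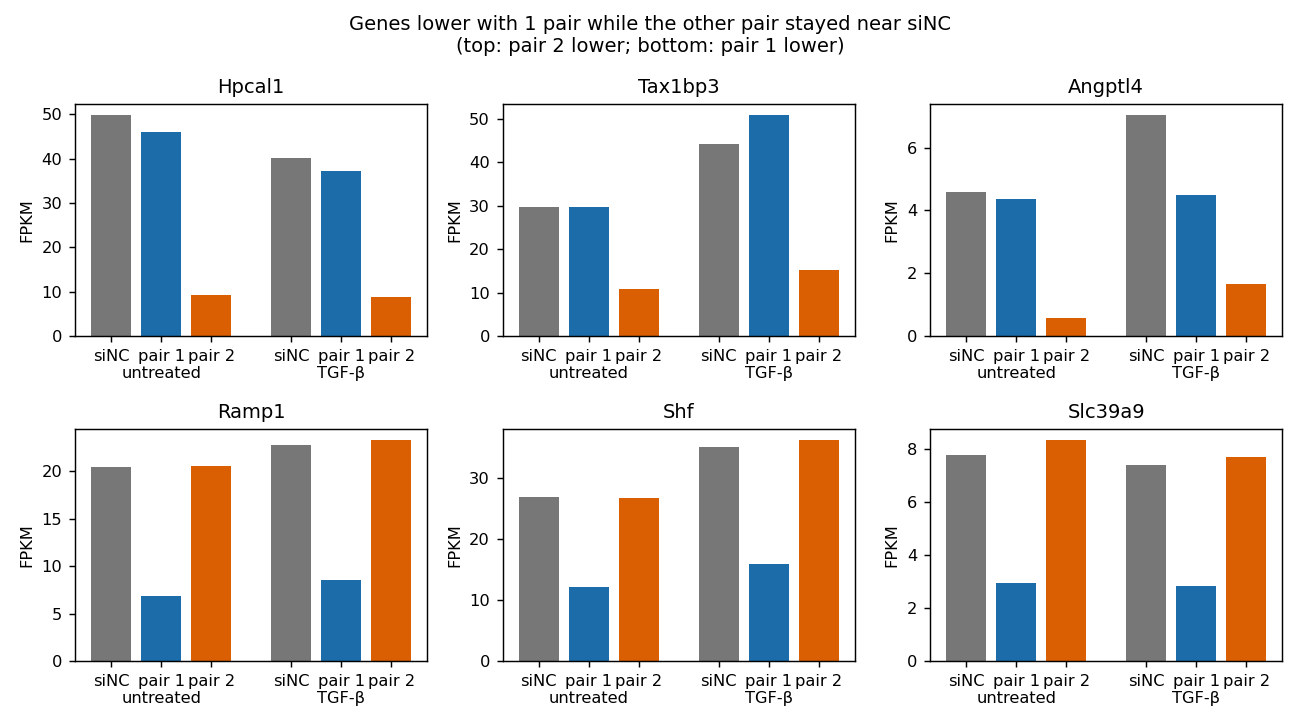
Expression levels in FPKM (linear axes from 0) in the 6 siRNA libraries, 1 bar per library, of 3 genes low with pair 2 only (Hpcal1, Tax1bp3 and Angptl4, top) and 3 genes low with pair 1 only (Ramp1, Shf and Slc39a9, bottom). In each panel the pair that is not low lies within 1.5-fold of siNC on the log2(FPKM + 1) scale in both states.

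Few genes lower with pair 2 held a match to the seed of siEtv5_2 in the 3′ UTR. A match to the 7 bases opposite the seed (GAATTTA, searched on the mRNA strand) was found in the longest annotated 3′ UTR of 962 of the 8056 tested genes with an annotated 3′ UTR (11.9%). Among 49 such genes lower with pair 2, 2 had a match (4.08%), Adamts5 and Tax1bp3. Among 51 such genes higher with pair 2, 9 had a match (17.6%), including Hmga2, Nt5e and Sema4b. Of the genes low with pair 2 only, 1 of 3 with an annotated 3′ UTR had a match (Tax1bp3). Of those low with pair 1 only, 3 of 10 had one (Hmga2, Sema4b and Slc39a9), compared with 11.9% of all such genes. Hpcal1, Ei24 and Rraga had no match, which says only that these letters are not in the UTR searched. The median difference between the pairs for genes with a match was 0.05 in untreated cells and -0.02 with TGF-β, and for genes without a match 0.00 and 0.03. Genes with a match have longer 3′ UTRs, with a median of 2708 against 1156 bases. Seeds of the remaining siRNAs were not analysed here.

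Of the gene lists related to stress, p53 target genes were lower with pair 2 in many members. Of 16 tested, 12 were lower with pair 2 in both states and 0 higher, while over all genes 2748 of 9094 were lower in both states and 2994 higher. The median difference was -0.62 in untreated cells and -0.29 with TGF-β, compared with 0.00 and 0.02 over all genes tested. Btg2, an antiproliferative gene, was at 7.29, 17.3 and 5.18 FPKM with siNC, pair 1 and pair 2 and at 9.99, 16.4 and 6.12 FPKM with TGF-β. Pmaip1 (Noxa), a proapoptotic BH3-only protein, was at 3.35, 3.76 and 1.12 FPKM and at 5.55, 6.17 and 2.40 FPKM. These 2 of the 16 were the only ones 2-fold apart in both states (0.627% of all genes were 2-fold lower). Cdkn1a (p21) was at 163.2, 223.5 and 137.0 FPKM in untreated cells but at 223.1, 176.8 and 185.5 FPKM with TGF-β, where the pairs were nearly the same. Relative to siNC, the median of the list was 0.12 with pair 1 and -0.47 with pair 2 in untreated cells, and -0.25 and -0.41 with TGF-β.

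No tested gene of the response to double-stranded RNA was 2-fold apart between the pairs in both states. Of 49 interferon-stimulated and sensing genes, 16 were expressed highly enough to be tested. At any size 11 of the 16 were higher with pair 2 in both states and 4 lower, while over all genes 2994 of 9094 were higher and 2748 lower, and 1.28% were 2-fold apart in the same direction. The median difference of the list was 0.24 in untreated cells and 0.14 with TGF-β. Ddx58 (RIG-I), a sensor of double-stranded RNA, was at 12.9, 4.24 and 7.97 FPKM with siNC, pair 1 and pair 2 and at 10.0, 4.01 and 6.52 FPKM with TGF-β, below siNC with both pairs.

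For genes of ERK feedback, 1 of 17 tested was 2-fold higher with pair 2 in both states and 1 lower, compared with 0.649% and 0.627% of all genes. Dusp7, a phosphatase of ERK, was at 11.5, 8.30 and 20.98 FPKM and at 22.7, 10.3 and 21.9 FPKM. Dusp1, an immediate early phosphatase of MAP kinases, was at 46.5, 27.4 and 9.48 FPKM and at 36.8, 32.0 and 13.2 FPKM. Of 11 tested matrix metalloproteinases and inhibitors, Mmp28 was 2-fold higher with pair 2 (0.649% of all genes), at 4.66, 2.35 and 7.83 FPKM and at 2.36, 2.78 and 7.67 FPKM. Of 16 other secreted proteases tested, Adamts1 and Adamts5 were 2-fold lower (0.627% of all genes). Adamts1 was at 14.5, 29.4 and 12.7 FPKM and at 9.91, 28.0 and 10.9 FPKM, and Adamts5 was at 8.23, 16.8 and 7.42 FPKM and at 2.85, 9.99 and 3.82 FPKM. Of 17 tested genes of the chemokine and cytokine list, which does not hold Ppbp, Ccl9 was 2-fold lower with pair 2 in both states (0.627% of all genes), at 0.48, 4.34 and 0.87 FPKM and at 0.14, 12.7 and 1.71 FPKM. No gene was 2-fold apart in both states among the tested genes of 8 further lists, namely other ETS factors (13 genes), the small RNA pathway (11), the integrated stress response (19), DNA replication and mitosis (34), TGF-β signaling (24), sterol and fatty acid synthesis (28), mammary keratins (7) and the interferon list.

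Part of the members varied as much between replicates of untransfected cells. Of the 116 members, 28 (24.1%) were at least 2-fold apart between replicates of at least 1 untransfected EpRas group, compared with 6.17% of all genes tested. They included 10 of the 12 small RNA and histone genes. Replication histone mRNAs have no poly(A) tail, whereas the libraries were made from poly(A) RNA, and 8 of 22 histone genes tested were at least 2-fold lower with pair 2 in both states, compared with 0.627% of all genes. Hist1h1c was at 3.96, 13.8 and 5.76 FPKM and at 5.35, 18.7 and 8.01 FPKM, and in the untransfected replicates at 15.4 and 9.06 FPKM without and at 3.36 and 15.96 FPKM with TGF-β. The untransfected replicates of Hist1h1c with TGF-β thus lay near the lowest and the highest of the 6 siRNA libraries. What part RNA without a poly(A) tail has in these differences was not tested.

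Further protein-coding genes among them differed between untransfected replicates. Akr1b3, an aldose reductase, was at 2.73, 8.01 and 0 FPKM with siNC, pair 1 and pair 2 and at 17.1, 13.8 and 0 FPKM with TGF-β, and it was listed near 0 in 1 of 2 untransfected replicates in each state. The ribosomal protein genes Rpl26 (11.98, 35.6 and 0 FPKM, and 10.7, 67.2 and 19.7 FPKM) and Rpl34 (27.6, 81.6 and 27.6 FPKM, and 32.0, 78.0 and 30.5 FPKM) were 2-fold apart between untransfected replicates as well. Hpcal1, Ecm1, Gpr123, Acta2 and Ramp1 were not.

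Markers of mammary epithelium were expressed with both pairs. Epcam was between 110.9 and 221.5 FPKM and Krt8 between 1083 and 2197 FPKM over the 6 libraries, while of the basal keratins Krt14 was between 108.8 and 364.6 FPKM and Krt5 at or near 0. Ptprc, Adipoq, Plin1 and Lum, markers of leukocytes, adipocytes and fibroblasts, were at or near 0 in all 6, while Pdgfra was between 1.76 and 6.79 FPKM and Cd68 between 2.18 and 6.52 FPKM. The depth of the pair libraries relative to that of untreated siNC was 1.36 and 1.38 for pair 1 and 1.27 and 1.24 for pair 2, and 5 FPKM corresponded to a median of 105 to 119 reads in them.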

How the data were processed

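mRNA was sequenced directionally on the Ion Proton. The authors aligned the reads to mm10 with TopHat2 2.0.11 and deposited FPKM of 23284 genes from Cuffdiff (Cufflinks 2.2.0), with an interval in FPKM for each library. The siRNA libraries and the untransfected libraries came from separate Cuffdiff runs, so their levels are only set side by side. No column of per-sample values was left without a sample (0), and the EpH4 libraries were not used here. Genes without an OK status (2, Rn45s and Serbp1) were left out, and 9094 genes with at least 5 FPKM in 1 siRNA library were tested.

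Differences were computed on log2(FPKM + 1), which understates the change of low genes. limma 3.58.1 in R 4.3.3 was fitted to the 6 libraries with terms for siRNA and TGF-β, with Benjamini-Hochberg adjustment over all genes tested. With 1 library per condition, the spread behind these p-values comes from how the differences among the transfections, siNC included, changed between the TGF-β states. The fit was tested on simulated libraries with large changes and the same spread for every gene, a simpler setting than these data. Members were genes at least 2-fold apart in the same direction in both states. Named genes were Etv4, Etv5, the 15 with the largest smaller-of-both-states difference in each direction (small RNA genes left out), members of 16 gene lists past 2-fold, and genes chosen after their values were seen, such as Ramp1, Ei24 and Rraga. Rmrp was not counted among the small RNA genes. The members and lists were chosen with earlier results of these data known. Reads were recovered from the steps between FPKM for 3768 genes with 1 start site (within 0.02 reads of a whole number). Gene positions come from the deposited table, and siRNA sites were searched in GENCODE vM21 transcripts (mm10). Alternatives covered the pseudocount, the filter, centring, the model, the fold, Cuffdiff intervals and leaving out each library.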

Additional observations from a re-analysis of the deposited data

Results flagged for a closer look

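Outside the small RNA and histone genes, 3 genes were at least 2-fold apart between the siRNA pairs in both states but in opposite directions. Eif3f, a subunit of the translation initiation factor eIF3, was at 448.8 FPKM with pair 1 and 192.2 FPKM with pair 2 in untreated cells, and at 154.2 and 361.5 FPKM with TGF-β, a difference of 2.44 between the states on the log2 scale. For Mcts2, a translation factor, the corresponding values were 26.2 and 12.1 FPKM, then 13.3 and 28.1 FPKM, a difference of 2.07. AK010878 was at 13.4 and 5.78 FPKM, then at 4.28 and 11.3 FPKM, a difference of 2.31. The untransfected replicates of Eif3f with TGF-β were also 2-fold apart, at 148.3 and 306.0 FPKM. Of all 17 genes apart in opposite directions, 9 (52.9%) were at least 2-fold apart between untransfected replicates, compared with 6.17% of all genes tested. With 1 library per condition the difference between the states was not tested.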

How the results depend on the processing

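No paired analysis was possible by replicate number because the siRNA libraries carry none, while the fit itself matches the siRNA pairs by TGF-β state. limma called 0 genes higher with pair 2 under every setting except leaving out a pair library, and 0 lower except with the 4 pair libraries alone (4 genes) and when a library was left out. Leaving out a pair library leaves that pair with 1 library, which is then assumed to vary like the other groups. Leaving out 1 library gave 0 to 7 genes higher (4 without untreated pair 2, 1 without TGF-β pair 1 and 7 without TGF-β pair 2) and 0 to 9 lower (4 without either siNC library, 1 without untreated pair 2, 9 without TGF-β pair 1 and 4 without TGF-β pair 2). The count of genes 2-fold apart in both states, 59 higher and 57 lower, became 90 and 79 with a pseudocount of 0.1 FPKM, 24 and 25 with 5 FPKM, 35 and 29 at a mean of at least 10 FPKM, 258 and 230 at 1.5-fold, 7 and 18 at 3-fold, and 4 and 7 by Cuffdiff intervals. It was 161 and 186 in the untreated libraries only and 188 and 169 in the TGF-β libraries only. Without the filter, with centring, and without small RNA and histone genes (chosen after seeing the data) it stayed within 1.5 times. Etv4 stayed higher with pair 2 under all settings, by 0.53 to 1.21 (lowest adjusted p 0.17), whereas Etv5 ranged from -0.32 to 0.079, turning positive without untreated pair 2. Of the 45 genes named by the rule, Etv5 was the only one that changed direction, and genes chosen after their values were seen were not run. Acta2 and Fhl1 (adjusted p 0.021) and Akr1b3 (0.044) passed with the 4 pair libraries alone, and Rpl26 (0.036) without TGF-β pair 2. The median difference of genes with a match to the sense strand of siEtv5_2 was 0.040 with TGF-β, against -0.02 for the seed, and 0.015 against 0.051 in untreated cells. The cause of these changes was not tested.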
